A study of Mus musculus with 4 samples.

Results

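Oxidative phosphorylation genes encode the 5 enzyme complexes of the mitochondrial inner membrane that turn the energy of NADH and succinate into ATP. This report follows the elements of a STARR-seq table that lie nearest to such genes. An element was taken when its centre lay within 100 kb of a protein-coding transcript's start site (TSS) and the nearest such start belonged to a gene whose symbol begins with Nduf, Uqcr, Atp5, or Cox followed by a digit from 4 to 8, or is Sdha, Sdhb, Sdhc or Sdhd. The rule found 61 elements of the 24232 listed, nearest to 47 of the 93 genes it covers. The rule itself used no measured reporter value, but the elements it drew on were listed only with q-values under 0.01.

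In STARR-seq a genomic fragment is cloned into the transcript of a reporter gene, and a fragment able to raise transcription is then found more often in reporter RNA than in the input DNA. Here the plasmids were carried as episomes, after transient transfection, by primary T cells of C57BL/6NJ mice driven towards the T helper 17 (Th17) fate. The 4 biological replicates form 1 group, all given, as far as the labels list it, interleukin-6 and antibodies against CD3e (0.25 µg/mL), CD28 (1 µg/mL), interleukin-4 (2 µg/mL) and interferon-gamma over 3 days. The labels give 1 donor identifier for all replicates and no age or sex. No endogenous transcript was measured, so markers of Th17 cells could not be read from these data.

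Electrons enter the chain at complex I (NADH dehydrogenase, Nduf genes) or complex II (succinate dehydrogenase, Sdh genes), pass through complex III (Uqcr genes) to complex IV (cytochrome c oxidase, Cox genes), and the proton gradient so formed drives complex V (ATP synthase, Atp5 genes). Activated T cells raise mitochondrial respiration together with glycolysis. The nuclear genes of the chain are broadly expressed, mostly from CpG-rich promoters, and NRF1, the ETS factor GABPA, YY1 and the estrogen-related receptors are known regulators of them.

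Every log2 fold change, p-value and q-value below comes from the authors' deposited table, which pools the 4 replicates. It holds no values per replicate and no counts, so depth is unknown, and no spread between replicates can be given. The table is limited to q-values under 0.01, which by the q-values themselves is 21.1% of 114722 elements tested, so an absent element may have been tested without passing or not tested. The sign was taken as reporter RNA over input, which the files do not state, and the log base was taken as 2. Elements with a positive value are called higher and those with a negative value lower. Were the sign the other way round, the words would swap throughout. No element had an absolute value under 0.37, which leaves an empty band about 0.

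Of the 61 elements, 24 were higher and 37 lower, a share of 39.3% higher with an exact (Clopper-Pearson) 95% interval of 27.1% to 52.7% that covers counting error only. Among all 22068 listed elements within 100 kb of a coding TSS, 45.7% were higher, which lies inside that interval. Their median log2 fold change was -0.78, against -0.77 for all linked elements. Its 95% interval ran from -0.90 to 0.58, and among the 37 elements with q under 0.001 the median was 0.62, with 20 of them higher. No value at that stricter cut is given for all linked elements, so the change cannot be called particular to these genes. Over all 61 elements, values ran from -3.10 near Ndufb4 to 4.05 near Cox6c. By gene, 27 of the 47 had lower elements and no higher one, 15 the opposite, and 5 carried elements of either sign. These are 57.4%, 31.9% and 10.6%, beside 46.1%, 25.0% and 28.9% of all 11543 coding genes with an element. Only a gene with more than 1 element can carry both signs, and 37 of the 47 had 1. Elements per gene also differ, 61 over 47 genes here and 22068 over 11543 genes in all, so these shares are not like for like.

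**Figure D1:**
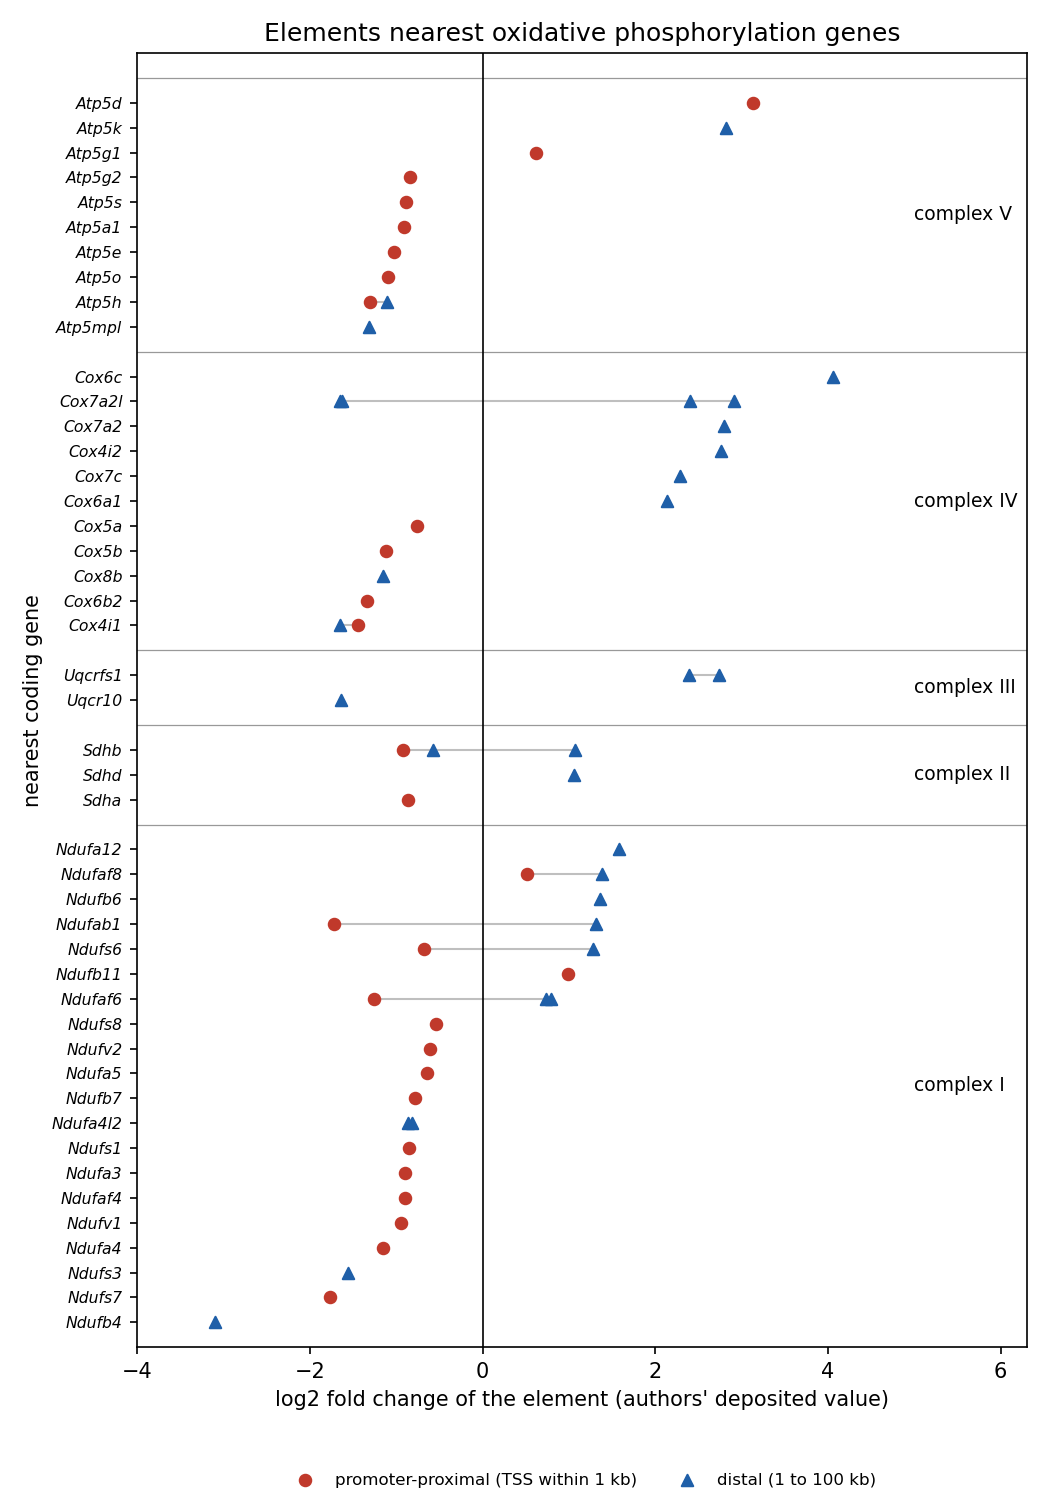
Each point is 1 of 60 of the 61 elements (1 is not shown by gene), placed by its log2 fold change (horizontal axis) on the row of its nearest coding gene, grouped by respiratory complex; circles are promoter-proximal and triangles distal elements, and grey lines join elements of 1 gene. Most circles lie between -1.77 and -0.54, and 10 of the 11 elements at 2 or more are triangles.

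The elements were split by position. The centre lay within 1 kb of the TSS for 30 elements, called promoter-proximal, and further out for 31, called distal. All 30 promoter-proximal elements covered the start site itself, and their centres were at most 218 bp from it. Of them 5 were higher (16.7%, exact 95% interval 5.64% to 34.7%), beside 13.3% of all 9508 promoter-proximal elements. Among the distal elements 19 were higher (61.3%, 42.2% to 78.2%), beside 70.3% of all 12560 distal elements within 100 kb. Both shares are near their background and are no result particular to these genes. Medians were -0.89 at promoters and 1.08 away from them.

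**Figure D2:**
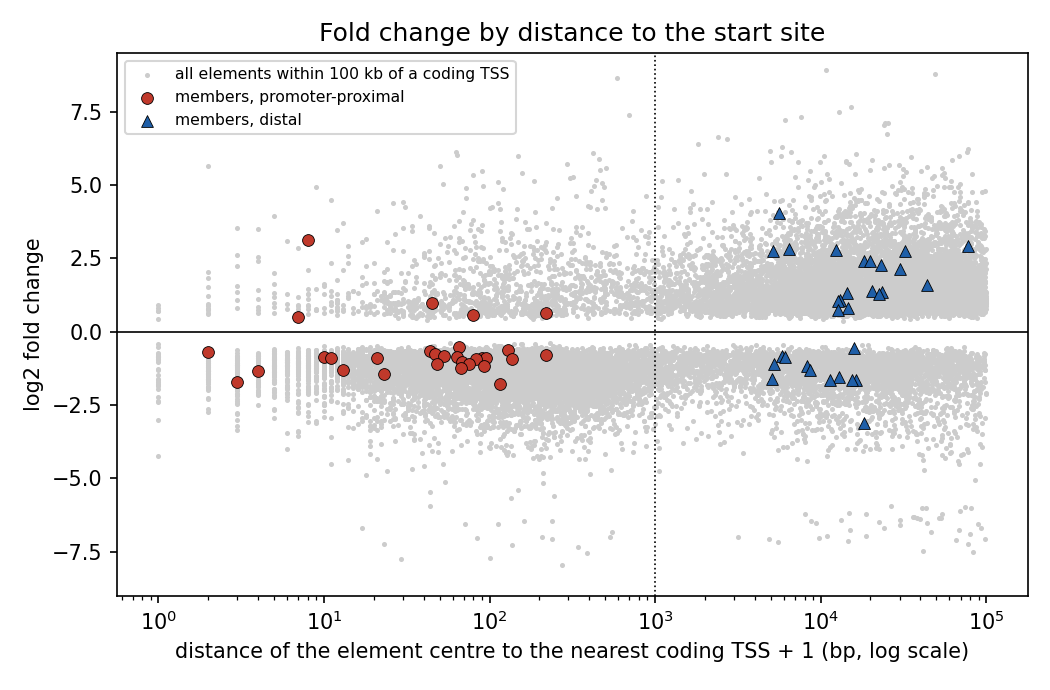
The vertical axis is the log2 fold change and the horizontal axis the distance from the element centre to the nearest coding TSS, plus 1 bp, on a log scale; grey points are all 22068 linked elements, circles and triangles the 61 elements of oxidative phosphorylation genes, and the dotted line marks 1 kb. No oxidative phosphorylation element lies between 250 bp and 1 kb, and all 8 beyond 20 kb are above 0.

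Some of the sequences that carry these values are shown first. Of the 10 distal elements at 2 or more, 6 held within the 300 bases about their centre the letters TGANTCA, the recognition sequence of AP-1, the FOS, JUN and BATF family that T cell activation induces. Among all distal elements at 2 or more within 100 kb of a coding TSS the share was 40.3% (967 of 2397), and among all higher distal ones 47.5%. Below are the central 300 bases of 5 such elements, plus strand of mm10 from the RefSeq genome sequence, with AP-1 matches in capitals: 2 upstream of Uqcrfs1 (chr13:30550351-30550650 and chr13:30565039-30565338), 1 upstream of Cox7a2 (chr9:79772201-79772500), 1 downstream of the Cox4i2 start (chr2:152787514-152787813) and 1 far downstream of the Cox7a2l start (chr17:83436126-83436425).
Uqcrfs1, 5138 bp upstream: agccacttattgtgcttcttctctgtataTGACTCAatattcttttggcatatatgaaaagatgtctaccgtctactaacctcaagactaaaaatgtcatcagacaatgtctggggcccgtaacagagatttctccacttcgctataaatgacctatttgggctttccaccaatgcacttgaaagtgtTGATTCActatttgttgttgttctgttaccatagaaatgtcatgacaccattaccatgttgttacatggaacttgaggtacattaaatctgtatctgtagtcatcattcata
Uqcrfs1, 19826 bp upstream: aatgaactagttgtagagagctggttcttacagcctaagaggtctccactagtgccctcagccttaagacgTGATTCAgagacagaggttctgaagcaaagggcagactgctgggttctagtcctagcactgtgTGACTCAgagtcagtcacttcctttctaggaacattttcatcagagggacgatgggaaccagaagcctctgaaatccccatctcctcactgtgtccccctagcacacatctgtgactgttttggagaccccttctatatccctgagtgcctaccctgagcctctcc
Cox7a2, 12472 bp upstream: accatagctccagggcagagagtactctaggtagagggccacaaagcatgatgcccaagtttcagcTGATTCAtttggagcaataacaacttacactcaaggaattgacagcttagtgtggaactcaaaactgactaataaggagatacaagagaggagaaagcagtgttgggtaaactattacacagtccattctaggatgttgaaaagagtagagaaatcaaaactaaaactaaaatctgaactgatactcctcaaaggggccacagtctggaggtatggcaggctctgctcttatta
Cox4i2, 32569 bp downstream: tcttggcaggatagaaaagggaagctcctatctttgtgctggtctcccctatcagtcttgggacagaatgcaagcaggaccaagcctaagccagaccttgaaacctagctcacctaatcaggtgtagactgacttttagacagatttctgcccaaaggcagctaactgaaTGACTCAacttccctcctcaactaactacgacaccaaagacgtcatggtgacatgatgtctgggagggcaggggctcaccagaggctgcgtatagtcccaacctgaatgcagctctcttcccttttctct
Cox7a2l, 78055 bp downstream: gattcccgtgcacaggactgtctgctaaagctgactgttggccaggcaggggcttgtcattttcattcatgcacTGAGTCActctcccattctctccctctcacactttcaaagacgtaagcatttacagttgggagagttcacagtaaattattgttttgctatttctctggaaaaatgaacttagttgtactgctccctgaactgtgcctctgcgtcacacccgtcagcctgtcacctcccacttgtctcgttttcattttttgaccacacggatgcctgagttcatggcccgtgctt

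At promoters the matches were of other kinds. The start-site element of Atp5d, the highest promoter-proximal element of these genes, held 1 full CREB and ATF palindrome TGACGTCA, shown in capitals in the part of its central window that is outside annotated untranslated regions (chr10:80141301-80141456, plus strand, which is the gene's strand). The same part of the Ndufab1 promoter (chr7:122101887-122102038, minus strand, the gene's strand) is shown because it is among the lowest promoter-proximal elements and held none of the 8 motifs searched. These 2 examples do not show that matches go with the value. The next highest promoter, that of Ndufb11 (0.99), held none either, and the lowest, that of Ndufs7 (-1.77), held a YY1 match. The other promoter with the palindrome, that of Sdhb, was lower (-0.92).
Atp5d: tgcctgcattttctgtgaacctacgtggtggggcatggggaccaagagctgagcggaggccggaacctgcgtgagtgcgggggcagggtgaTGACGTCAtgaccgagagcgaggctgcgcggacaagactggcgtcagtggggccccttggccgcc
Ndufab1: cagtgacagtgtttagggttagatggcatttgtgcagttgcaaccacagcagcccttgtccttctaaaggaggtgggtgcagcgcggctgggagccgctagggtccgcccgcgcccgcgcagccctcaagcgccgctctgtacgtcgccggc

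The YY1 letters AAGATGGCG stood in 4 promoter elements of complex I subunit and assembly genes, and 3 of these are shown, with the match on the gene's own strand and centred 4 to 25 bp downstream of the start site. For Ndufs6 and Ndufs7 the ATG inside the match is an annotated start codon, which was so for 92 of 209 matching elements at promoters of any gene (44.0%). The ETS letters CCGGAAGT, bound by GABPA, stood in 4 others, and 3 of these are shown. Each line gives 10 bases on either side of the match in capitals.
Ndufaf8, YY1 (chr11:120098934-120098962, plus strand): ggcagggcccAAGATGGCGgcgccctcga
Ndufs6, YY1 (chr13:73328431-73328459, minus strand): ggtcaccggcAAGATGGCGgcggtgctga
Ndufs7, YY1 (chr10:80249463-80249491, plus strand): ggccgaggccAAGATGGCGgcgctggcgg
Ndufs1, ETS (chr1:63176822-63176849, plus strand): tgcagttccgCCGGAAGTagccgaggcc
Cox5b, ETS (chr1:36691547-36691574, plus strand): cagcctgttcCCGGAAGTgcatctgctt
Atp5h, ETS (chr11:115419941-115419968, plus strand): aagagagttgCCGGAAGTtctctccttg

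Promoter-proximal elements of complex I were mostly lower, and by small amounts. Of 16 such elements 13 were lower in the authors' deposited table, near the share over all promoter-proximal elements (8247 of 9508). Here and below, genes were placed in complexes by symbol alone. The core subunits of the NADH-binding and quinone arms are described here by 5 promoters and 1 further element. Ndufs7, an iron-sulfur subunit, had the lowest promoter at -1.77 (chr10:80248951-80249725, centre 114 bp upstream of the TSS, q = 8.03e-09). It was followed by Ndufv1 (-0.95), which binds NADH, Ndufs1 (-0.85), Ndufv2 (-0.61) and Ndufs8 (-0.54). Ndufs3 had no promoter-proximal element. Its element of -1.56 lay 12886 bp upstream (chr2:90917151-90918275, intergenic, q = 6.07e-07). That element had a GC content of 66.4% and a ratio of observed to expected CpG of 0.70, close to the medians of these promoters (60.2% and 0.78). When non-coding transcripts were included, the nearest start was one of Ptpmt1, 44 bp from the centre.

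The accessory subunits of complex I surround that core. Ndufab1, the mitochondrial acyl carrier protein, had a promoter element of -1.72 (chr7:122101551-122102225, q = 2.65e-07). A higher element of 1.31 lay at the other end of the gene, 14397 bp downstream of its start and centred on an untranslated region (chr7:122086951-122087725, q = 9.76e-09). Ndufs6 likewise had a lower promoter element, -0.68 (chr13:73328201-73328725, q = 0.00939), and a higher one, 1.28, between genes 22517 bp downstream (chr13:73305651-73306225, q = 5.05e-07). The promoters of Ndufa3 (-0.89), Ndufb7 (-0.78) and Ndufa5 (-0.65) were lower. That of Ndufa4 (-1.16) was lower too. Ndufa4 is counted with complex I by its symbol, although its protein is now assigned to complex IV. Ndufb11, an X-linked subunit gene that shares its start region with Rbm10 on the opposite strand, was higher at 0.99 (q = 1.92e-05).

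Distal elements near accessory subunit genes and Ndufa4l2 ran from the lowest value of all to moderate positive ones. Ndufb4 had the lowest, -3.10, at 18190 bp downstream (chr16:37636101-37636425, intergenic), but with a q of 0.00879 close to the limit of the table. Ndufa4l2, a paralog of Ndufa4 known to be induced by hypoxia, had 2 lower elements 5842 and 6079 bp upstream, at -0.82 and -0.87. They span 200 and 75 bp and lie 100 bp apart. When non-coding transcripts were included, the nearest start was one of Stac3, 1900 and 1663 bp from their centres. Ndufa12 (1.58, chr10:94242876-94243150, intergenic, 44009 bp away, q = 4.64e-06), which had the highest value of complex I, and Ndufb6 (1.36, 23504 bp away) had higher elements.

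Complex I assembly factors take part in building the enzyme and are not subunits of it. Of 8 Ndufaf genes 3 had an element, and 4 of their 6 elements were higher, beside 45.7% of all linked elements. Ndufaf8 had a promoter of 0.52 and a distal element of 1.38 in an intron of Slc38a10. Ndufaf6 combined a lower promoter (-1.25, chr4:11075701-11076575, centred on a coding exon, q = 1.43e-06) with 2 higher intergenic elements upstream. They measured 0.73 at 12821 bp (chr4:11088676-11089375, q = 0.00324) and 0.80 at 14709 bp (chr4:11090776-11091050, q = 0.00126). Ndufaf4 had a lower promoter (-0.90).

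Complexes II and III contributed few elements. The promoters of Sdha, the flavoprotein, and Sdhb, the iron-sulfur subunit, were lower at -0.87 and -0.92 (Sdhb at chr4:140960976-140961700, q = 0.00105). Upstream of Sdhb, both within introns of Padi2, lay a higher element at 13053 bp (1.08, chr4:140947876-140948425, q = 1.79e-06) and a lower one at 16003 bp (-0.57, chr4:140944951-140945450, q = 0.00198). Sdhd, a membrane anchor, had a higher element 12649 bp downstream (1.06). Sdhc had none. The Uqcr genes of complex III had no promoter-proximal element. Cyc1, a complex III subunit outside the rule, had lower ones at -1.85 and -1.16. Uqcrfs1, the Rieske iron-sulfur protein, had the 2 higher elements whose sequences are given above, 2.74 at chr13:30550326-30550675 (q = 1.18e-14) and 2.39 at chr13:30564901-30565475 (q = 6.72e-15), both intergenic. The next coding start, that of Dusp22, lies 109499 and 94811 bp from their centres. The element of Uqcr10, a small subunit, was lower (-1.64, chr11:4687676-4688275, intergenic, q = 0.00375). Of the 8 Uqcr genes, Uqcr11, Uqcrb, Uqcrc1, Uqcrc2, Uqcrh and Uqcrq had no element assigned.

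Complex IV held 7 of the 11 elements at or above 2 on the log2 scale, and complex I none of them. Each of these complexes had 11 distal elements. Among all 12560 distal elements within 100 kb, 2397 were at 2 or more. The difference between complexes was not tested. All 7 elements of complex IV at 2 or more were distal. The highest, near Cox6c (4.05, chr15:35943776-35943900, intergenic, 5592 bp upstream, q = 3.48e-07), spans 125 bp, is repeat-masked over its whole length and had 74 other copies on the chromosomes at 95% identity or more. Which copy gave the signal cannot be told from this table. None of the other 60 elements had such a copy. Cox7a2 had a value of 2.80 (chr9:79772176-79772525, q = 5.36e-16), in an intron of Tmem30a. Cox4i2, an isoform of the regulatory subunit known from lung and hypoxic cells, was the nearest coding start for an element of 2.76 in an intron of Bcl2l1 (chr2:152787301-152788025, q = 6.18e-19). Bcl2l1 encodes the survival protein BCL-XL, and its own start lies 42647 bp from the element. Assignment to Cox4i2 therefore rests on distance alone. Cox7c (2.29, chr13:86023026-86023200, intergenic, q = 0.00121) and Cox6a1 (2.13, 30144 bp upstream) completed the single-element genes. The Cox7c element is 93.1% repeat-masked.

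Cox7a2l, which encodes a factor that joins complexes III and IV into supercomplexes, had 4 elements and the widest span of values. In the authors' deposited table, a pair were higher, 2.91 in an intron of Eml4 (chr17:83436101-83436450, q = 1.63e-06) and 2.40 between genes (chr17:83495801-83496075, 18392 bp downstream of the start, q = 2.04e-05). The other two were lower, -1.62 in its own intron (chr17:83509151-83509325, q = 0.00908) and -1.65 at 11445 bp upstream (chr17:83525726-83525825, q = 0.00201). The lower ones span 175 and 100 bp, so they rest on short stretches.

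The promoters of the Cox genes counted in complex IV were all lower, 4 of 4, as were 8247 of all 9508 promoter-proximal elements. Cox4i1, the broadly expressed counterpart of Cox4i2, had the lowest (-1.44, chr8:120667676-120668725, q = 4.62e-06) and the highest GC content of the 61 elements, 72.9%. Its central window held 5 matches to the SP and KLF letters GGGGCGGGG, counting overlaps. A second Cox4i1 element 15480 bp downstream was lower as well (-1.65, chr8:120683526-120684050, q = 0.00011), and lies in an intron of the readthrough gene Gm20388. The others were Cox6b2, a testis isoform (-1.34, chr7:4752526-4753425, q = 0.00153), Cox5b (-1.11) and Cox5a (-0.76). Cox8b, a muscle isoform, had a lower distal element (-1.16).

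Complex V was represented mainly by its promoters, 8 of 11 elements, of which 6 were lower, beside 8247 of all 9508 promoter-proximal elements. Atp5d, the delta subunit of the rotor stalk, was the exception in size. Its promoter element had a log2 fold change of 3.13, 8.75-fold (chr10:80141201-80141700, centred 7 bp upstream of the TSS, 500 bp, GC 60.4%, q = 3.56e-19). Of all 9508 promoter-proximal elements 108 (1.14%) were at or above that value. The next highest of these promoters was Ndufb11 at 0.99. The start of Cbarp lies 622 bp from that of Atp5d on the opposite strand. Atp5g1, a gene of the c-ring, was higher at 0.62, whereas Atp5g2, which encodes the same mature protein, was lower at -0.84.

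The remaining promoters of complex V lay close together. Atp5h (-1.30, q = 5.87e-08), Atp5o, the stalk subunit that confers oligomycin sensitivity (-1.10), Atp5e (-1.03), Atp5a1, the catalytic-head alpha subunit (-0.91), and Atp5s (-0.89) were lower. Atp5k, a subunit of the membrane part, had a higher element of 2.81 at 6465 bp upstream (chr5:108440826-108441000, intergenic, q = 6.12e-07), 72.0% of it repeat-masked. Atp5mpl had a lower distal element (-1.31, chr12:111957901-111958625, intergenic, q = 0.00336), the lowest of complex V, and so had Atp5h at 5257 bp (-1.11).

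The size of the promoter values was smaller than at promoters in general, a split chosen after the values were seen. Values at or beyond 1 in either direction on the log2 scale were found for 11 of 30 promoter-proximal elements (36.7%, exact 95% interval 19.9% to 56.1%), against 73.8% of all 9508. These promoters had a median GC of 60.2%, against 64.7%. Among all promoter-proximal elements of the same GC deciles the share at 1 or more was 61.6%. The lower ones had a median of -0.91, against -1.33. The shares were 9 of 26 (34.6%) for cytosolic and 12 of 34 (35.3%) for mitochondrial ribosomal protein genes, 11 of 23 (47.8%) for glycolysis genes and 14 of 24 (58.3%) for other genes of the pathway. No test of these differences was made, since elements are not replicates.

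**Figure D3:**
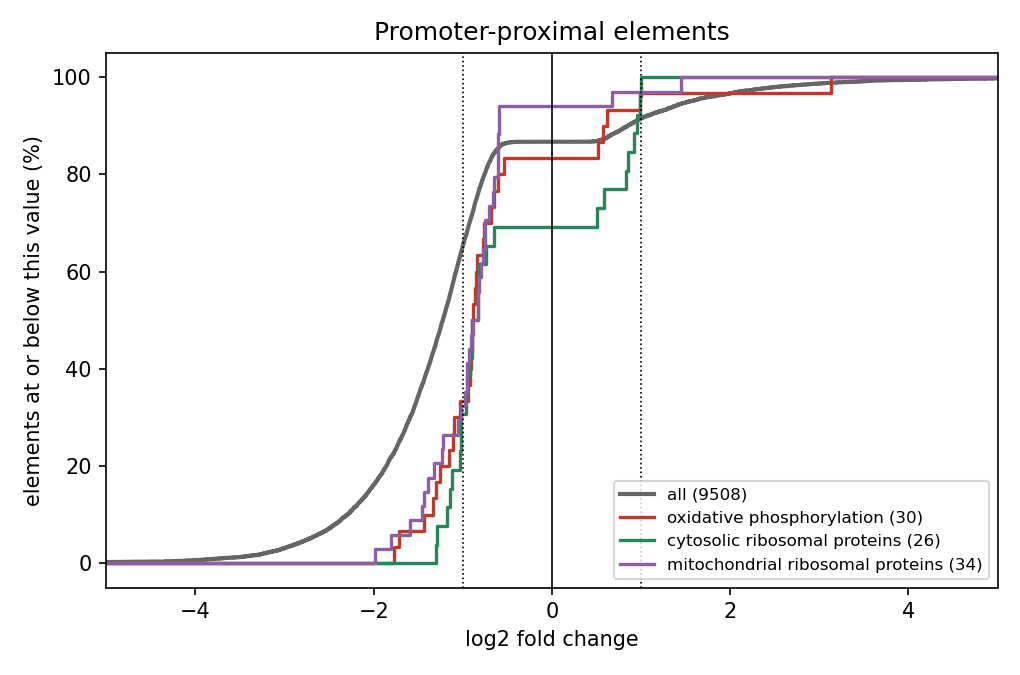
Cumulative share of promoter-proximal elements (vertical axis, percent) at or below each log2 fold change (horizontal axis) for all 9508 elements and for 3 gene lists; dotted lines mark -1 and 1. The oxidative phosphorylation curve has a median of -0.89 and runs close to both ribosomal curves below 0, to the right of the curve of all promoters.

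Some of these promoters lie close to the start of another gene on the opposite strand. For 12 of the 30 (40.0%) a coding gene on the opposite strand starts within 1 kb, beside 793 of all 9508 promoter-proximal elements (8.34%). The gap is 3 bp for Ndufs1 and Eef1b2 and for Ndufb11 and Rbm10, 51 bp for Ndufs6 and Mrpl36, and 70 bp for Atp5a1 and Haus1. The opposite start need not lie inside the element. That of Cbarp is 615 bp from the centre of the 500 bp Atp5d element. Of the 12 promoters with an opposite start 3 were higher, and of the other 18 there were 2. Over all promoter-proximal elements 12.1% of those with an opposite start and 13.4% of the other ones were higher. Because the nearest start decides the assignment, 6 elements within 1 kb of the start of a rule gene went to a neighbour instead. They are those of Atp5j (0.58, nearer to Gabpa), Ndufa13 (1.42, nearer to Yjefn3), Ndufa11 (-0.76, nearer to Vmac), Ndufb9 (-1.29, nearer to Tatdn1) and Uqcrh (0.87 and -1.39, nearer to Lrrc41). None of these 5 genes has an element among the 61.

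Away from promoters, composition and distance moved with the sign. Higher distal elements had a median GC of 46.1% and a median length of 350 bp, and lower ones 52.6% and 512.5 bp. With GC under 50%, 16 of 20 distal elements were higher, beside 84.6% of all such elements. With GC of 50% or more it was 3 of 11, beside 47.7%. At the same GC deciles and the same side of 1 kb, 70.8% of all linked elements were higher, against the 61.3% observed, which lies within 42.2% to 78.2%. By distance, 3 of 9 were higher at 1 to 10 kb (all linked elements, 2513 of 4122), 8 of 14 at 10 to 20 kb (71.4%) and 8 of 8 at 20 to 100 kb (76.4%). Each of these bins holds under 20 elements.

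**Figure D4:**
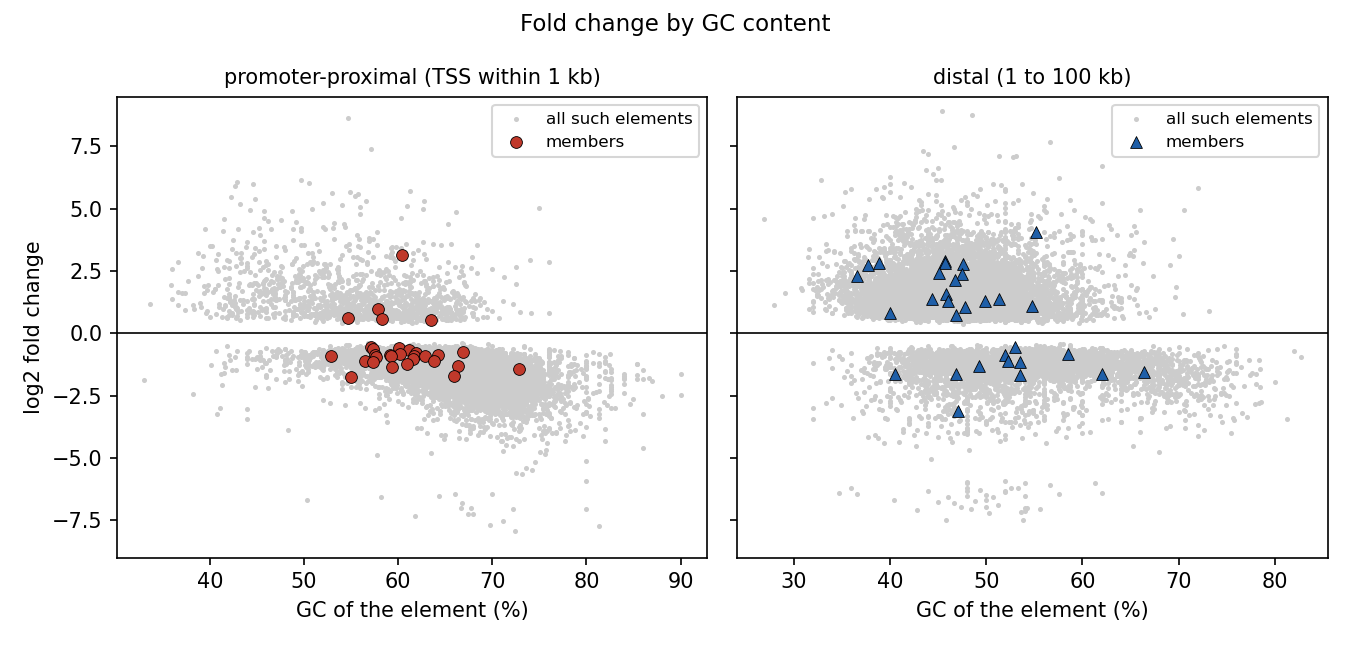
Log2 fold change (vertical axis) against GC content in percent (horizontal axis), promoter-proximal elements on the left and distal ones on the right; grey points are all linked elements and coloured points the 30 and 31 of oxidative phosphorylation genes. Promoters gather between 52.9% and 72.9% GC, mostly under 0, and distal elements under 50% GC are mostly above 0.

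Distal elements were not always in the gene they were assigned to. Of 31, 7 had their centre inside another coding gene, namely Eml4, Tmem30a, Bcl2l1, Slc38a10, Gm20388 and, for both elements, Padi2. When non-coding transcripts were included, a gene of the rule stayed nearest for 46 of the 61 elements, of which 16 were higher (34.8%). Starts of Padi2 (1738 and 1212 bp) were then nearest to the upstream Sdhb elements. One of Mrpl58 (3090 bp) was nearest to the distal Atp5h element, and one of Eml4 (20026 bp) to the Cox7a2l element within Eml4. Upstream and downstream positions had like shares, 10 of 16 and 9 of 15 higher. At least 50% of the bases were repeat-masked in 6 of the 61 elements, of which 5 were higher. Among all linked elements 4.13% were that rich in repeats, and 87.2% of those were higher.

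Motif matches were counted in the 300 bp about each centre, on both strands, for 8 strings, none of which contains another. AP-1 letters occurred in 13 of 31 distal elements (41.9%), beside 37.7% of all distal elements within 100 kb. Of the 13, 10 were higher (76.9%), as were 9 of the 18 without. Over all distal elements the shares were 88.4% and 59.3%. The 6 with a match among those at 2 or more were those of Cox6c, Cox7a2l, Cox7a2, Cox4i2 and both of Uqcrfs1. The window reaches beyond elements shorter than 300 bp, and the Cox6c match lies outside its 125 bp element. The labels give a size range of 200 to 400 for the libraries. Bases beside an element shorter than that may thus have been on the fragments tested, which cannot be checked here. The lowest element, near Ndufb4, had a match too.

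At promoters, matches to the known regulators of these genes were few in this window. YY1 letters were in 4 of 30 (13.3%), beside 2.20% of all promoter-proximal elements, among them Ndufaf8, which was higher, and Ndufs6 and Ndufs7, which were lower. Over all promoter-proximal elements 28.7% with YY1 letters were higher and 12.9% without. ETS letters were in 4 of 30 (13.3%, beside 4.33%), at Ndufs1, Atp5a1, Cox5b and Atp5h, all lower. Most promoters with them were lower at any gene. Over all promoter-proximal elements 15.5% with ETS letters were higher and 13.2% without. NRF1 letters CGCATGCG were in 2 (6.67%, beside 2.36%), at Atp5g2 and Ndufaf4. SP and KLF letters were in 3 (10.0%, beside 19.2%) and the E-box CACGTG in 3 (10.0%, beside 8.28%). CREB and ATF letters were in 2 (6.67%, beside 1.85%), at Atp5d, which was higher, and Sdhb, which was lower. The estrogen-related receptor letters TCAAGGTCA were in no promoter-proximal element of these genes and in 0.137% of all. A match describes letters in a window and does not show that a factor was bound.

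Other genes of the pathway, 58 in number and outside the rule, gave 50 elements at 32 genes. Most are assembly factors and regulators, but Cyc1 and Cycs, the gene of the electron carrier cytochrome c, are among them. Of the 50 elements 17 were higher (34.0%), 6 of 24 at promoters and 11 of 26 away from them. Over all linked elements 45.7% were higher, 13.3% at promoters and 70.3% away from them. These differences were not tested. Highest in the authors' deposited table were elements near Lyrm7, an assembly factor of complex III (4.12), Coa7 (3.85), Uqcc1 (3.01) and Cox18 (2.94), all distal. Lowest were the promoters of the regulators Nrf1 (-3.25) and Ppargc1b (-2.91), followed by distal elements of Cox10 (-2.79) and Cox11 (-2.64), both assembly factors of complex IV. The Cox10 and Cox11 elements span 75 and 175 bp, with q of 0.00816 and 0.00886 close to the limit of the table. That of Cox11 lies in an intron of Tom1l1.

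Set beside related gene lists, the oxidative phosphorylation elements had shares between theirs. At promoters 8 of 26 were higher for cytosolic ribosomal protein genes, 2 of 34 for mitochondrial ribosomal protein genes and 8 of 23 for glycolysis genes. Away from promoters it was 12 of 31, 22 of 36 and 25 of 26. Over all linked elements the shares were 13.3% at promoters and 70.3% away from them. Differences between lists were not tested.

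**Figure D5:**
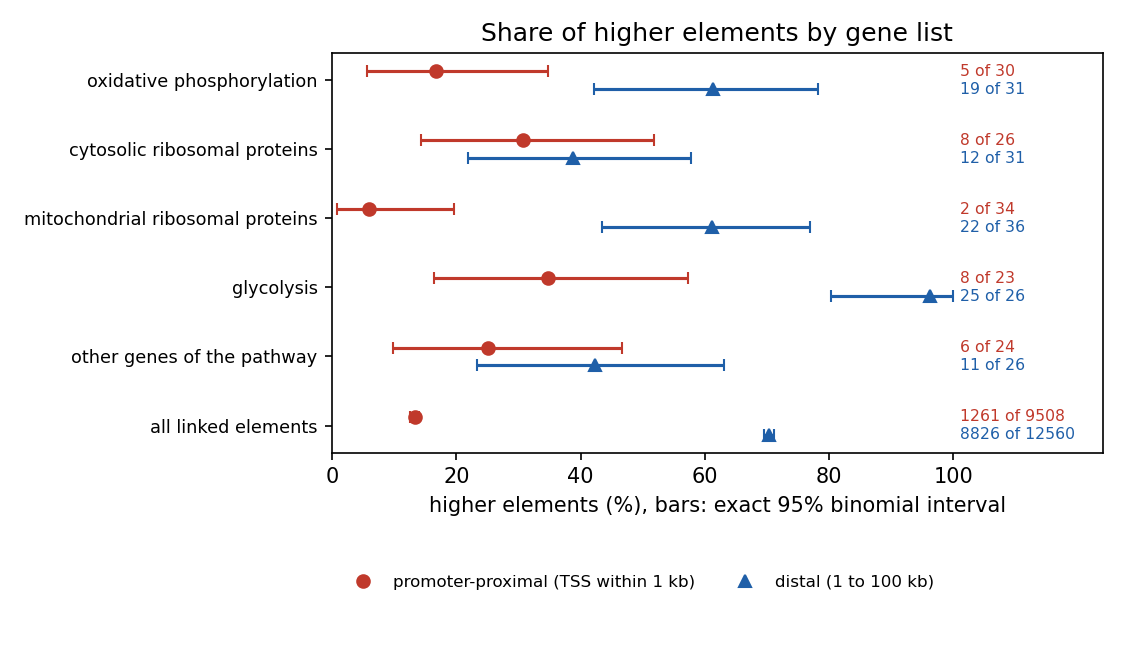
Percent of higher elements (horizontal axis) for 5 gene lists and for all linked elements (rows), with exact 95% binomial intervals as bars and the counts at the right; circles are promoter-proximal and triangles distal elements. For oxidative phosphorylation the intervals of 5.64% to 34.7% and 42.2% to 78.2% contain the values of all linked elements, 13.3% and 70.3%.

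An element was assigned to 50.5% of the 93 oxidative phosphorylation genes, beside 52.9% of all 21829 coding genes. For promoter-proximal elements it was 32.3% beside 37.9%. The 46 genes without one include Ndufa1, Ndufa2, Ndufa9, Ndufb10, Ndufs4 and Ndufs5 of complex I, Cox6b1, Cox7b and Cox8a of complex IV, and Atp5b, Atp5c1, Atp5f1 and Atp5j of complex V. Atp5b and Atp5c1 encode the catalytic beta and the rotating gamma subunit.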

How the data were processed

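STARR-seq reporter RNA was sequenced from 4 replicates of 1 group. Per the file headers, the deposited element table was derived from the alignments of all 4 on mm10; which aligner and caller were run is not given in the sources used here. Per element, the authors deposited a log2 fold change, a p-value and a q-value. All 24232 q-values matched a Benjamini-Hochberg adjustment over 114722 tests within a relative tolerance of 1e-06. Annotation used GENCODE M21 and the RefSeq sequence (GRCm38.p6, the same assembly as mm10) for the 24217 elements on chromosomes; 15 on other contigs were left out. Copies were sought with blastn 2.17.0 (95% identity, 90% coverage). Intervals were computed with scipy 1.17.1 and checked on simulated data.

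Members and gene lists were chosen with earlier results of these data known. The gene of 1 element is not reported here by name, and the counts include it. All other genes of the rule may be named. Full positions are given for the 10 highest and 10 lowest elements, each complex's extremes, and genes with 3 or more elements or both directions. Of the other pathway genes, the 4 highest and 4 lowest elements are named, and those of Cyc1. With 1 group and pooled values, no test was run here. Other link distances, thresholds and readings of the rule were tried.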

Additional observations from a re-analysis of the deposited data

How the results depend on the processing

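Of 26 values recomputed under other settings, 22 differed from the reported one by less than its exact 95% interval and 4 did not. With links limited to 1 kb, which leaves the promoter-proximal elements alone, the share of higher elements was 16.7%. With q-values under 0.001 it was 54.1% (20 of 37 elements), and the median log2 fold change turned from -0.78 to 0.62. With absolute log2 fold changes of at least 1, which removes the values nearest 0, the median was -1.03. The stricter q kept 16 of 30 promoter-proximal and 21 of 31 distal elements, and no value at that cut is given for all linked elements. Why the stricter q moved the values was not tested. The share for promoter-proximal elements ran from 9.09% to 25.0% and that for distal elements from 61.3% to 76.2% over their settings. Moving the promoter limit to 500 bp or 2 kb kept the same 30 and 31 elements. Those settings, counted among the 22, could not change the values. No paired analysis was possible because there is 1 group and the values are pooled; for the same reason no replicate could be left out. Without counts, what depth limits cannot be stated.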
